A study of Mus musculus with 9 samples.

Results

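The pan-macrophage markers and lysozymes are 10 genes listed by name, by a rule with no threshold on a measured value, out of 46078 genes in the expression table: the lysozymes Lyz1 and Lyz2, the adhesion receptors Adgre1, Adgre4 and Adgre5, the cytosolic protein Aif1, the lysosomal proteins Cd68 and Laptm5, the pore-forming protein Mpeg1 and the surface phosphatase Ptprc. Their RNA was measured in 9 sequencing libraries of cultured macrophages from C57BL/6J mice, with 3 libraries in each of 3 groups. FLM_G cells came from fetal livers taken on gestational day 15 to 19 and were kept in medium with 10% fetal bovine serum and recombinant GM-CSF, the granulocyte-macrophage growth factor, at 30 ng/ml. FLM_M cells came from fetal livers of the same gestational days and were kept in 30% L-cell supernatant, which supplies the macrophage growth factor M-CSF, with 20% fetal bovine serum. BMM cells came from bone marrow; the labels do not give their medium or the age of the donors. Every culture was at least 8 weeks old, and the 3 libraries of a group came from wells plated in triplicate, so p-values measure the spread between these wells and not between mice or separate derivations.

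Lysozyme is a secreted enzyme that cuts the peptidoglycan of bacterial walls; in mice Lyz2 is the macrophage and granulocyte copy and Lyz1 the copy known from intestinal Paneth cells. Adgre1 encodes F4/80, the antigen by which mouse tissue macrophages are most often recognised, and belongs with Adgre4 and Adgre5 (CD97) to the EGF-module adhesion receptors of white blood cells. Cd68 and Laptm5 sit in the membranes of late endosomes and lysosomes, Mpeg1 (perforin-2) forms pores in phagosomes, Aif1 (IBA1) binds calcium and bundles actin, and Ptprc (CD45) removes the inhibitory phosphate from Src-family kinases in all nucleated blood cells. These genes are commonly used to call a cell a macrophage, and the question addressed here is how far their levels held across the 3 cultures.

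The 9 libraries held 28560000 to 35680000 reads, as far as the steps between low values show. All 8 of the other macrophage markers listed (Csf1r, Spi1, Fcgr1, Mertk, Cd14, Itgam, Tyrobp and Fcer1g) averaged at least 5 FPKM (reads scaled to transcript length and library size) in each group, so each was present under the macrophage label. Their levels were not even: 3 were higher and 5 lower in FLM_G than in BMM, 5 higher and none lower in FLM_M than in BMM, and 3 higher and 5 lower in FLM_G than in FLM_M. The 3 higher in both FLM_G comparisons were Mertk, Tyrobp and Spi1. Mertk averaged 64.0 ± 1.6 FPKM in FLM_G and 9.11 ± 0.39 FPKM in BMM. Tyrobp averaged 2408 FPKM in FLM_G and 914 FPKM in BMM. Spi1 had 150 to 190 FPKM in FLM_G and 84.1 to 89.2 FPKM in BMM. Among the 5 lower, Csf1r, the receptor of M-CSF, averaged 119 ± 4.7 FPKM in FLM_G and 368 ± 7.6 FPKM in BMM. The lipopolysaccharide co-receptor Cd14, also lower, averaged 34.4 ± 0.34 FPKM in FLM_G, 202 ± 9.5 FPKM in FLM_M and 78.2 ± 1.2 FPKM in BMM. Markers of T cells, NK cells, mast cells and eosinophils, and fibroblasts all averaged under 1 FPKM in every group, and the 4 Paneth-cell markers in the table were at 0 in all libraries. Among the B-cell, dendritic, erythroid, megakaryocyte, hepatocyte and endothelial lists no group had more than 2 genes at 1 FPKM or more; the most abundant were the platelet factor gene Pf4 (0.576 ± 0.12 FPKM in FLM_G, 164 ± 21 FPKM in FLM_M and 192 ± 4.4 FPKM in BMM) and the transferrin gene Trf (127 ± 7.4 FPKM in FLM_G, 31.7 ± 4.1 FPKM in FLM_M and 5.01 ± 0.44 FPKM in BMM; SD, n = 3 each). Pairs of libraries correlated at 0.986 to 0.992 within groups and at 0.785 to 0.936 between groups. The male-specific gene Eif2s3y was at 0 in all libraries of both fetal liver groups and at 10.6 to 11.3 FPKM in BMM, while Xist averaged 48.5 FPKM in FLM_G, 70.9 FPKM in FLM_M and 0.0020 FPKM in BMM. Sex and tissue of origin therefore changed together between the fetal liver groups and BMM and cannot be told apart. Whether the medium also differed from that of BMM is not known, since the labels do not give it.

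Lyz1 and Lyz2 lie next to each other on the minus strand of chromosome 10 (GRCm38, GENCODE M21), Lyz2 at chr10:117277331-117282321 and Lyz1 at chr10:117287797-117292868. Their upstream sequences are printed because the RNAs of both genes followed the same course across the libraries. Each run holds the 250 bases before the RefSeq start site (GRCm38.p6), read on the gene's own strand, Lyz2 at chr10:117282273-117282522 and Lyz1 at chr10:117292869-117293118. The RefSeq start of Lyz2 lies inside the GENCODE gene, so the last bases of its run do too. Distances below are counted from the RefSeq start.
Lyz2: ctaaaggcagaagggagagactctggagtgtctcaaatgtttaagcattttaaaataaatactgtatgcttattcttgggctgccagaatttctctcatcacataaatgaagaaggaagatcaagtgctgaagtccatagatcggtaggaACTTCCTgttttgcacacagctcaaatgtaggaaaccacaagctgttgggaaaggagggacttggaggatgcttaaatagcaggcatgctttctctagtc
Lyz1: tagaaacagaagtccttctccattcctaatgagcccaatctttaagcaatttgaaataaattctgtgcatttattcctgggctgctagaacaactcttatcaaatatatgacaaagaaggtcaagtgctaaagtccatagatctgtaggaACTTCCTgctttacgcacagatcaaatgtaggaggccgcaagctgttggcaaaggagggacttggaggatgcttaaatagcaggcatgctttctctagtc
The capitals mark ACTTCCT, which reads AGGAAGT on the other strand, a core recognised by ETS-family factors such as PU.1; in each promoter it begins 100 bases before the start. The promoters were identical at 204 of 244 aligned positions (83.6%), and likeness was greater between the middle of the run and the start (115 identical positions, 92.0%) than between its far end and the middle (89 identical positions, 74.8%). RefSeq promoters were at hand for 8 of the 10 genes. On either strand AGGAAGT occurred in 3 of them (Lyz1, Lyz2 and Ptprc) and in 7.69% of all 32851 promoters, a share counted by promoter and not by gene. The other motif searched, TTGCNNAA with N for any base, occurred in Lyz1, Cd68 and Adgre4 but not in Lyz2, and in 9.56% of all promoters. These matches describe letters only and show no binding.

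Lyz2 was among the most abundant RNAs of every culture and was highest in FLM_G. Levels are FPKM divided by a TMM factor for each library, changes are differences in log2(scaled FPKM + 1), and a gene passed where its limma p, adjusted over all genes tested, was under 0.05. The scaled FPKM of Lyz2 were 25787, 25597 and 25416 in FLM_G, 3570, 3679 and 3708 in FLM_M, and 6615, 6379 and 6231 in BMM. The 3 groups lay far apart with no overlap. By group means Lyz2 was 3.99 times as high in FLM_G as in BMM (log2 change 1.998 ± 0.071 SE; limma, adjusted p = 2.1e-08) and 7.01 times as high in FLM_G as in FLM_M (log2 2.81 ± 0.07; limma, adjusted p = 2.0e-09). In FLM_M it fell below BMM by 0.81 on the log2 scale (limma, adjusted p = 2.4e-05), a call not made on the deposited counts (edgeR -0.33, adjusted p = 0.45; DESeq2 -0.42, adjusted p = 0.40). Before scaling, Lyz2 alone made up 3.74% to 4.05% of the FPKM total in FLM_G, 1.00% to 1.07% in FLM_M and 1.61% to 1.80% in BMM, and ranked 3 to 4, 8 to 11 and 4 to 5 among all genes in those groups. In bulk RNA, more RNA per cell and more cells with the RNA cannot be told apart, here or in the results that follow.

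Lyz1 followed Lyz2 at a far lower level. Its scaled FPKM were 131.0, 130.4 and 116.1 in FLM_G, 19.7, 19.4 and 17.6 in FLM_M, and 29.4, 31.8 and 32.8 in BMM, again without overlap. Lyz1 rose in FLM_G relative to BMM (log2 1.97 ± 0.07; limma, adjusted p = 2.0e-08) and relative to FLM_M (log2 2.67 ± 0.07; limma, adjusted p = 2.4e-09), and fell in FLM_M relative to BMM (log2 -0.70 ± 0.07; limma, adjusted p = 5.1e-05). On the deposited counts DESeq2 called neither the rise in FLM_G against BMM (log2 1.31, adjusted p = 0.40) nor the fall in FLM_M (log2 -0.087, adjusted p = 0.99). The ratio of Lyz2 to Lyz1 within a library was 197, 196 and 219 in FLM_G, 182, 189 and 211 in FLM_M, and 225, 201 and 190 in BMM. All 3 pairs of groups overlapped in this ratio, and the exact two-sided permutation p was 0.9 for FLM_G against BMM, 0.4 for FLM_M against BMM and 0.3 for FLM_G against FLM_M, where 3 against 3 libraries can reach no less than 0.1.

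The copies are near-identical, which makes the Lyz1 values uncertain. Their transcripts (1263 bases for Lyz1 and 1316 for Lyz2) matched at 1211 of 1262 aligned positions (96.0%); 22 of the 1163 windows of 101 bases in Lyz1, the length of a read, occur unchanged in Lyz2, and 299 (25.7%) do so with up to 2 mismatches. Lyz1 stood at only 0.445% to 0.550% of Lyz2, so whether its reads came from Lyz1 or were misplaced reads of Lyz2 was not tested. The sum of both copies does not depend on that division and averaged 25726 ± 193 FPKM in FLM_G, 3671 ± 72 FPKM in FLM_M and 6439 ± 192 FPKM in BMM (SD, n = 3 each). These sums did not overlap in any pair of groups, and each exact permutation p was 0.1, the smallest possible. Being almost all Lyz2, the sums repeat the Lyz2 result and cannot show where the Lyz1 reads came from.

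**Figure D1:**
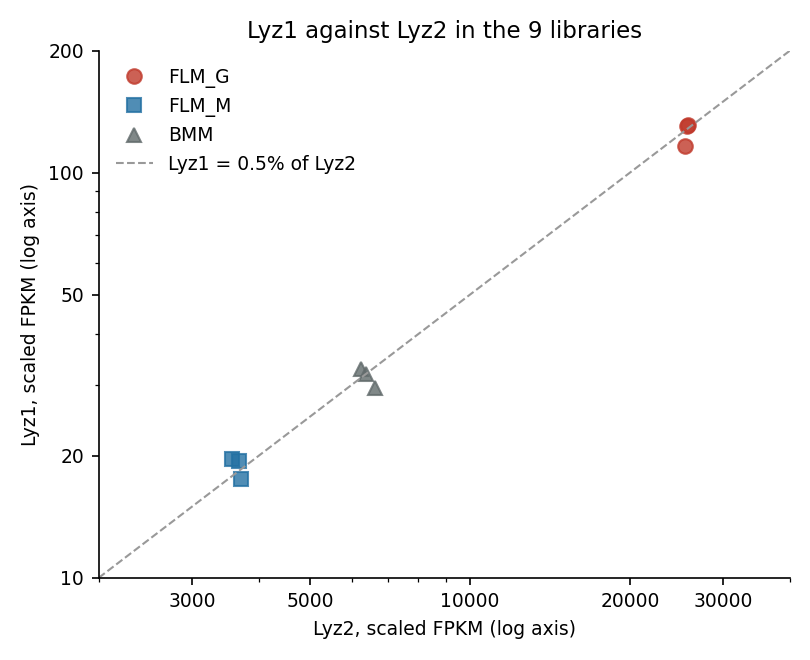
Lyz1 against Lyz2 in the 9 libraries, both as scaled FPKM on log axes, with 1 point per library, a colour and shape for each group and a dashed line of constant ratio. The points lie along that line, with FLM_G at the top right near 25600 FPKM of Lyz2, BMM between and FLM_M at the lower left.

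Of 9 other lysozyme-family genes only Lyzl4, a lysozyme-like gene known mainly from testis, reached the level needed for testing. It fell in all 3 comparisons, and its average level did not reach 5 FPKM in any group. Its changes with and without scaling (-1.54 and -1.62 in FLM_G, -1.13 and -1.16 in FLM_M, each against BMM) place it above 1 FPKM in BMM only. The direction of both falls against BMM was therefore fixed by the filter. Of 17 other antibacterial genes listed, 6 were tested: 5 rose and none fell in FLM_G against BMM, 3 rose and 2 fell in FLM_M against BMM, and 5 rose and 1 fell in FLM_G against FLM_M. Over all genes tested, 33.8% were called higher and 34.1% lower in FLM_G against BMM, 22.7% and 21.9% in FLM_M against BMM, and 35.5% and 35.1% in FLM_G against FLM_M, and the counts of this and the following lists stand beside these shares. Some of the 6, such as Chil3, passed the filter only through FLM_G, so the direction of their rise was fixed by it. Chil3, a chitinase-like secreted lectin, averaged 1725 ± 62 FPKM in FLM_G, was listed at 0 in all FLM_M libraries and averaged 0.499 ± 0.15 FPKM in BMM. Wfdc17, a whey-acidic-protein domain gene, averaged 3855 ± 12 FPKM in FLM_G, 114 ± 11 FPKM in FLM_M and 44.6 ± 0.8 FPKM in BMM (SD, n = 3 each). Neutrophils also hold lysozyme and such proteins: the summed level of 14 neutrophil markers was 69.2 to 74.7 FPKM in FLM_G, 10.8 to 13.9 FPKM in FLM_M and 5.75 to 6.90 FPKM in BMM, with S100a8 (53.3 ± 3.5 FPKM in FLM_G) also a member of the antibacterial list. Of those 14, 10 were at 0 in all FLM_G libraries, Elane among them, 10 in all FLM_M libraries and 4 in all BMM libraries. Only 2 averaged at least 1 FPKM in FLM_G, S100a8 and Mmp8 (18.7 ± 1.5 FPKM). S100a9 was at 0 in FLM_G and FLM_M and at 0.813 to 1.21 FPKM in BMM. Lcn2 was at 0 in FLM_G and at 1.24 to 1.57 FPKM in FLM_M. The part of neutrophil RNA in the lysozyme values was not tested.

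**Figure D2:**
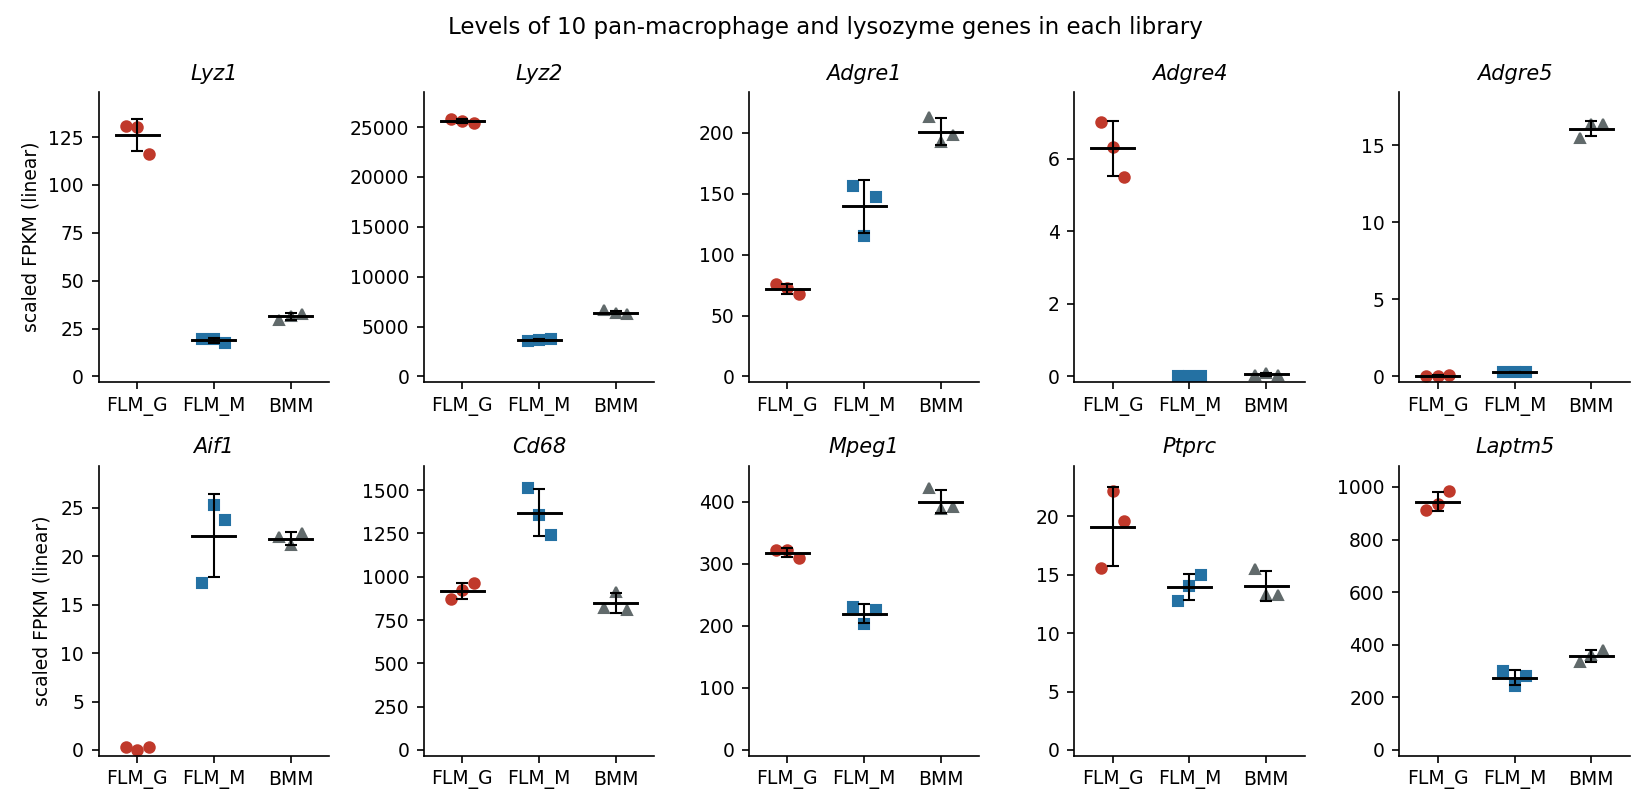
Scaled FPKM of the 10 genes in each library, 1 panel per gene with its own linear axis, points for libraries and, where no library is at 0, a black line for the mean with an error bar of 1 SD (n = 3). Above 1 FPKM, Adgre4 is seen in FLM_G alone, Adgre5 in BMM alone, Aif1 in FLM_M and BMM, and the other genes in all 3 groups.

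The 3 EGF-module receptors took 3 different courses. Adgre1 was high in every culture and lowest in FLM_G: 75.9, 72.3 and 67.7 FPKM in FLM_G, 157, 115 and 147 FPKM in FLM_M, and 213, 192 and 198 FPKM in BMM. No groups overlapped, and the spread was widest in FLM_M. Adgre1 fell in FLM_G relative to BMM (log2 -1.47 ± 0.11; limma, adjusted p = 3.2e-06) and relative to FLM_M (log2 -0.94 ± 0.11; limma, adjusted p = 5.9e-05), and in FLM_M relative to BMM (log2 -0.53 ± 0.11; limma, adjusted p = 0.0039).

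Adgre4, which encodes a receptor known as FIRE on mouse myeloid cells, was present in FLM_G and close to absent elsewhere. It had 7.01, 6.32 and 5.50 FPKM in FLM_G, 0.0206, 0 and 0 FPKM in FLM_M, and 0.0330, 0.103 and 0.0379 FPKM in BMM. These values stand for about 481 to 574 reads per library in FLM_G, 0 to 3 in FLM_M and 4 to 12 in BMM. Adgre4 was tested only because of its level in FLM_G, so its rise there (log2 2.78 ± 0.07 against BMM, limma, adjusted p = 3.2e-09, and 2.85 ± 0.07 against FLM_M, limma, adjusted p = 2.4e-09) was fixed in direction by that filter. FLM_M and BMM differed by -0.07 ± 0.07 on the log2(FPKM + 1) scale (limma, adjusted p = 0.48). With a pseudocount of 0.1 the difference was -0.54 (limma, adjusted p = 0.038), where the p over the FPKM alternatives ran from 0.038 to 0.76; all of these levels rest on 12 reads or fewer.

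Adgre5 was above 1 FPKM in BMM only, and was tested only because of its level there. It had 0.0334, 0.0292 and 0.117 FPKM in FLM_G, 0.320, 0.313 and 0.310 FPKM in FLM_M, and 15.5, 16.4 and 16.4 FPKM in BMM. The 3 groups did not overlap. Since the filter was passed only through BMM, the direction of both falls against BMM was fixed by it. By group means Adgre5 was 51.2-fold lower in FLM_M than in BMM, and the change in FLM_M was -3.70 ± 0.05 on the log2(FPKM + 1) scale (limma, adjusted p = 6.5e-10). The fall in FLM_G was -4.01 ± 0.05 against BMM (limma, adjusted p = 5.0e-11) and -0.31 ± 0.05 against FLM_M (limma, adjusted p = 0.00061). The difference between FLM_G and FLM_M concerns levels under 1 FPKM in both groups, was not called on the deposited counts (edgeR, adjusted p = 0.23; DESeq2, adjusted p = 0.45) and could not be tested with only those 6 libraries, where Adgre5 missed the filter. With a pseudocount of 0.1 these 3 changes were -5.29 in FLM_M against BMM, -6.70 in FLM_G against BMM and -1.42 in FLM_G against FLM_M. Adgre5 overlaps the helicase gene Ddx39 on the other strand over 3642 bases. Ddx39 had 7.82 to 8.55 FPKM in FLM_G, 10.6 to 12.4 FPKM in FLM_M and 15.3 to 16.4 FPKM in BMM. Adgre5 stayed under 1 FPKM in both fetal liver groups, while in BMM the 2 genes had similar FPKM. Whether the FPKM of Adgre5 hold reads of Ddx39 was not tested in any group. The deposited counts of Adgre5 were 18, 8 and 10 in FLM_G, 32, 30 and 34 in FLM_M, and 59, 57 and 65 in BMM. The labels and submitters' notes do not say which strand was counted, though an earlier processing of the same files reported the opposite strand. Whether these counts hold reads of Ddx39 was not tested.

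Among 6 genes of proteins that bind ADGRE5, 3 were tested, and all 3 fell in FLM_G against BMM, none passed in FLM_M against BMM, and 2 fell in FLM_G against FLM_M. Itga5, an integrin chain of the fibronectin receptor, averaged 44.4 ± 1.4 FPKM in FLM_G, 60.7 ± 2.7 FPKM in FLM_M and 59.3 ± 3.4 FPKM in BMM, and its partner Itgb1 averaged 129 ± 14 FPKM in FLM_G, 187 ± 8.9 FPKM in FLM_M and 172 ± 9.0 FPKM in BMM (SD, n = 3 each). Only 3 of 27 adhesion receptors outside the Adgre family were tested: 2 rose and 1 fell in FLM_G against BMM, 1 rose and 1 fell in FLM_M against BMM, and 1 rose and 2 fell in FLM_G against FLM_M. None of these 3 averaged 5 FPKM in any group.

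Aif1 was near 0 in FLM_G and present in both other cultures. It had 0.305, 0 and 0.259 FPKM in FLM_G, 17.3, 25.3 and 23.8 FPKM in FLM_M, and 22.0, 21.1 and 22.4 FPKM in BMM. FLM_M and BMM overlapped, and FLM_G lay far below both. The fall in FLM_G was -4.27 ± 0.15 on the log2(FPKM + 1) scale against BMM (limma, adjusted p = 1.7e-08) and -4.27 ± 0.15 against FLM_M (limma, adjusted p = 1.5e-08); a pseudocount of 0.1 gave -6.49 for each. FLM_M and BMM differed by 0.00063 ± 0.15 (limma, adjusted p = 1.0). A list of 9 other genes held Aif1 relatives, actin-bundling genes and genes of actin regulation and signalling such as Rac1, Rac2, Plcg2 and Capg. Of these 7 were tested, with 3 higher and 2 lower in FLM_G against BMM. In FLM_M against BMM 3 were higher and 1 lower, and in FLM_G against FLM_M 3 were higher and 3 lower. Without scaling the balance in the FLM_G comparisons turned, with 2 higher and 4 lower against BMM and 1 higher and 5 lower against FLM_M. Lcp1 (L-plastin, an actin-bundling protein of white blood cells) averaged 386 ± 7.1 FPKM in FLM_G, 218 ± 37 FPKM in FLM_M and 196 ± 3.0 FPKM in BMM; Coro1a (coronin 1A, an actin regulator) averaged 40.7 ± 3.5 FPKM in FLM_G, 125 ± 8.4 FPKM in FLM_M and 79.2 ± 1.1 FPKM in BMM (SD, n = 3 each).

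Cd68 was abundant in all cultures and highest in FLM_M. It had 869, 926 and 962 FPKM in FLM_G, 1513, 1357 and 1241 FPKM in FLM_M, and 819, 912 and 808 FPKM in BMM. FLM_M lay above both others, while FLM_G and BMM overlapped. Cd68 rose in FLM_M relative to BMM (log2 0.69 ± 0.09; limma, adjusted p = 0.00022) and fell in FLM_G relative to FLM_M (log2 -0.57 ± 0.09; limma, adjusted p = 0.00032). Between FLM_G and BMM the difference of 0.12 ± 0.09 did not pass (limma, adjusted p = 0.25). Without scaling it turned to -0.30 (limma, adjusted p = 0.011; 0.011 to 0.60 over the FPKM alternatives).

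Laptm5, which promotes lysosomal breakdown of immune receptors, was raised in FLM_G. It had 912, 936 and 983 FPKM in FLM_G, 299, 243 and 283 FPKM in FLM_M, and 335, 361 and 381 FPKM in BMM. The groups did not overlap. Laptm5 was 2.63 times as high by means in FLM_G as in BMM (log2 1.39 ± 0.08; limma, adjusted p = 8.3e-07), 3.43 times as high in FLM_G as in FLM_M (log2 1.78 ± 0.08; limma, adjusted p = 1.3e-07), and lower in FLM_M than in BMM (log2 -0.39 ± 0.08; limma, adjusted p = 0.0058).

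Of 12 other lysosomal membrane genes, 10 were tested, and 7 rose and 1 fell in FLM_G against BMM, 4 rose and 4 fell in FLM_M against BMM, and 6 rose and 1 fell in FLM_G against FLM_M. Without scaling 6 rose and 3 fell in FLM_G against BMM, 5 rose and 3 fell in FLM_M against BMM, and 6 rose and 4 fell in FLM_G against FLM_M. With scaling their median log2 changes were 0.71, 0.11 and 0.70 in that order, beside -0.00032, -0.0015 and 0.0017 over all 11952 genes tested. Cd63, a tetraspanin of late endosomes, averaged 993 ± 31 FPKM in FLM_G, 481 ± 29 FPKM in FLM_M and 334 ± 4.3 FPKM in BMM. Laptm4b, a relative of Laptm5, averaged 10.6 ± 0.06 FPKM in FLM_G and 1.74 ± 0.20 FPKM in BMM, and was listed at 0 in 2 of the 3 FLM_M libraries. Lamp2, a lysosomal glycoprotein of the same family as Cd68, averaged 51.8 ± 2.1 FPKM in FLM_M and 42.8 ± 2.3 FPKM in BMM, a difference that did not pass (limma, adjusted p = 0.085) but did without scaling (limma, adjusted p = 0.048).

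Mpeg1 was abundant in all cultures and highest in BMM. It had 322, 322 and 310 FPKM in FLM_G, 231, 202 and 225 FPKM in FLM_M, and 421, 387 and 391 FPKM in BMM. The groups did not overlap. Mpeg1 fell in FLM_G relative to BMM (log2 -0.33 ± 0.06; limma, adjusted p = 0.0013) and in FLM_M relative to BMM (log2 -0.86 ± 0.06; limma, adjusted p = 5.9e-06), and rose in FLM_G relative to FLM_M (log2 0.54 ± 0.06; limma, adjusted p = 5.5e-05). The rise in FLM_G relative to FLM_M was lost without scaling (log2 0.05; limma, adjusted p = 0.50, with 5.2e-05 to 0.50 over the FPKM alternatives). On the deposited counts the fall in FLM_G against BMM was not called (edgeR -0.25, adjusted p = 0.52, and DESeq2 -0.31, adjusted p = 0.59). None of 11 other pore-forming genes with a MACPF domain, the complement and perforin genes among them, reached the level needed for testing.

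Among the genes present in all 3 cultures Ptprc was the least abundant, and its group means lay at most 1.37-fold apart. It had 15.6, 22.2 and 19.6 FPKM in FLM_G, 12.8, 14.0 and 15.0 FPKM in FLM_M, and 15.5, 13.3 and 13.3 FPKM in BMM. FLM_M and BMM overlapped and differed by -0.0063 ± 0.12 on the log2 scale (limma, adjusted p = 0.98). Ptprc passed as higher in FLM_G than in BMM (log2 0.41 ± 0.12; limma, adjusted p = 0.016) and than in FLM_M (log2 0.42 ± 0.12; limma, adjusted p = 0.014), but the lowest FLM_G library stood just above the highest library of each other group. Without scaling these differences were 0.01 (limma, adjusted p = 0.92; 0.0013 to 0.92 over the FPKM alternatives) and -0.04 (limma, adjusted p = 0.78; 0.0011 to 0.78). Leaving out BMM replicate 2 or 3 put the first at an adjusted p of 0.056 in limma for either library, and leaving out FLM_M replicate 1 put the other at 0.057.

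Of 14 listed CD45 partners, Src kinases and their regulators, 13 were tested, with 6 higher and 5 lower in FLM_G against BMM, 2 higher and 4 lower in FLM_M against BMM, and 6 higher and 4 lower in FLM_G against FLM_M. Without scaling 4 were higher and 6 lower in each FLM_G comparison. The Src-family kinase Fgr averaged 51.0 ± 2.8 FPKM in FLM_G and 1.87 ± 0.12 FPKM in BMM, a log2 rise of 4.18 (limma, adjusted p = 7.9e-11). Its relative Fyn averaged 0.387 ± 0.036 FPKM in FLM_G, 27.6 ± 0.73 FPKM in FLM_M and 17.4 ± 0.10 FPKM in BMM (SD, n = 3 each), and its log2 change in FLM_G against BMM was -3.73 (limma, adjusted p = 4.4e-11). Csk, the kinase that places the inhibitory phosphate, averaged 65.6 ± 3.6 FPKM in FLM_G, 67.0 ± 3.6 FPKM in FLM_M and 71.7 ± 1.2 FPKM in BMM and, with scaling, passed in none of the comparisons; without scaling it was lower in FLM_G than in BMM (log2 -0.54; limma, adjusted p = 2.0e-05) and than in FLM_M (log2 -0.51; limma, adjusted p = 2.6e-05). Of 20 other receptor tyrosine phosphatases, 6 were tested: 1 rose and 3 fell in FLM_G against BMM, 3 rose in FLM_M against BMM, and 1 rose and 4 fell in FLM_G against FLM_M. Ptpra, which also activates Src kinases, averaged 24.2 ± 1.0 FPKM in FLM_G, 101 ± 6.3 FPKM in FLM_M and 99.8 ± 4.3 FPKM in BMM.

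All 24 other leukocyte-wide genes were tested. In FLM_G against BMM 10 rose and 10 fell, in FLM_M against BMM 6 rose and 5 fell, and in FLM_G against FLM_M 10 rose and 10 fell, beside 68.0%, 44.6% and 70.6% of all genes called in these comparisons. Without scaling 10 rose and 12 fell in FLM_G against BMM, 9 rose and 4 fell in FLM_M against BMM, and 9 rose and 14 fell in FLM_G against FLM_M. Itgb2 (CD18, the common chain of the leukocyte integrins) averaged 759 ± 11 FPKM in FLM_G, 118 ± 5.0 FPKM in FLM_M and 202 ± 3.8 FPKM in BMM. Cd52, a small glycoprotein of white blood cells, averaged 149 ± 8.7 FPKM in FLM_G, 267 ± 25 FPKM in FLM_M and 138 ± 2.5 FPKM in BMM (SD, n = 3 each), and its difference between FLM_G and BMM did not pass (limma, adjusted p = 0.22). Of 22 myeloid transcription factors, 18 were tested: 10 rose and 7 fell in FLM_G against BMM, 3 rose and 5 fell in FLM_M against BMM, and 10 rose and 6 fell in FLM_G against FLM_M. Cebpb, a factor of the inflammatory myeloid programme, averaged 367 ± 46 FPKM in FLM_G, 65.1 ± 3.5 FPKM in FLM_M and 58.0 ± 4.6 FPKM in BMM. Maf, a factor of mature tissue macrophages, averaged 0.238 ± 0.051 FPKM in FLM_G, 46.3 ± 4.8 FPKM in FLM_M and 56.2 ± 2.4 FPKM in BMM.

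Taking the 10 genes side by side, 5 were higher and 4 lower in FLM_G than in BMM, and Cd68 did not pass. That count of 9 called genes stands beside 68.0% of all tested genes called in that comparison, 33.8% higher and 34.1% lower. In FLM_M against BMM only Cd68 was higher, 6 genes were lower, and Adgre4, Aif1 and Ptprc did not pass, beside 44.6% of all genes called, 22.7% higher and 21.9% lower. Of these 6 lower genes only Adgre5 was called by edgeR and DESeq2 on the deposited counts. Lyz2, Adgre1, Mpeg1 and Laptm5 were called by neither. For these edgeR gave log2 changes of -0.33 for Lyz2, -0.048 for Adgre1, -0.41 for Mpeg1 and -0.037 for Laptm5. Lyz1 did not enter edgeR and was not called by DESeq2 (log2 -0.087, adjusted p = 0.99). The counts hold far fewer reads than the FPKM stand for, such as 916 against about 300141 for Lyz2 in BMM replicate 1. Whether the counts of Adgre5 hold reads of Ddx39, which overlaps it on the other strand, was not tested. In FLM_G against FLM_M 6 were higher and 4 lower, beside 70.6% of all genes called, 35.5% higher and 35.1% lower. The libraries of the 2 groups did not overlap in 9 of the 10 genes in FLM_G against BMM (73.2% of all genes), in 8 in FLM_M against BMM (57.3%) and in 10 in FLM_G against FLM_M (72.4%). With backgrounds this high, the counts themselves say little about these 10 genes. The median absolute log2 change of the 10 was 1.72 in FLM_G against BMM, 0.61 in FLM_M against BMM and 1.36 in FLM_G against FLM_M, beside 0.39, 0.22 and 0.44 over all genes tested. Adgre4 entered these values only through its level in FLM_G and Adgre5 only through its level in BMM, so the medians are a description. The comparisons share libraries, FLM_G entering 2 of them, FLM_M 2 and BMM 2, so their results are not independent.

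**Figure D3:**
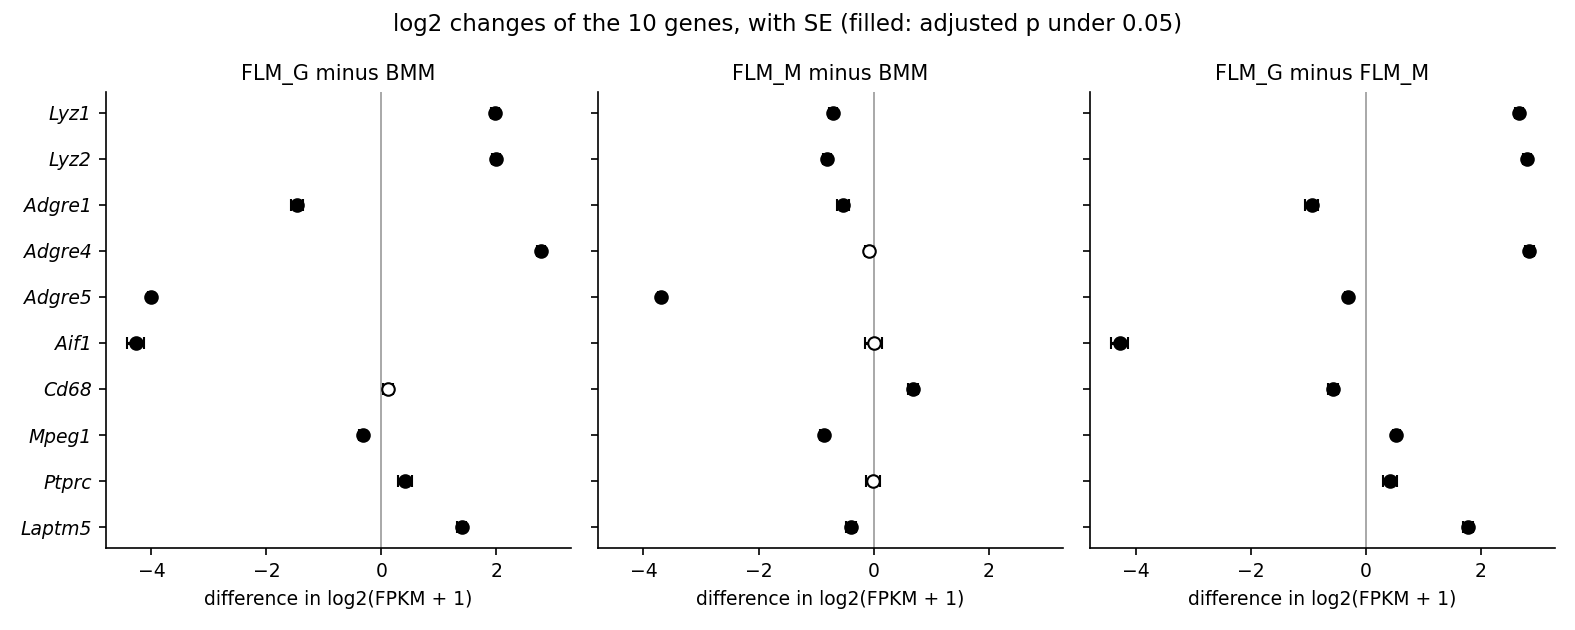
Log2 changes of the 10 genes in the 3 comparisons, as differences in log2(scaled FPKM + 1) with error bars of 1 SE, filled where the gene passed at an adjusted p under 0.05. Lyz1, Lyz2, Adgre4 and Laptm5 lie to the right of 0 in both FLM_G comparisons, Adgre1, Adgre5 and Aif1 to the left, and Cd68 alone passes to the right in FLM_M minus BMM.

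The direction of some smaller changes rested on how libraries were scaled. TMM, which sets the bulk of genes equal between libraries, gave factors of 0.801 to 0.821 in FLM_G, 1.13 to 1.14 in FLM_M and 1.08 to 1.09 in BMM. Without it, the median of all genes moved to -0.34 on the log2 scale in FLM_G against BMM and -0.39 in FLM_G against FLM_M. The split of calls then became 2081 higher and 6775 lower in FLM_G against BMM, beside 4044 higher and 4081 lower with scaling, and 2218 higher and 7075 lower in FLM_G against FLM_M, beside 4246 higher and 4195 lower. For FLM_M against BMM the split was 3323 higher and 2240 lower, beside 2716 higher and 2613 lower. The changes in Lyz1, Lyz2, Adgre1, Adgre4, Adgre5, Aif1 and Laptm5 kept their direction in both FLM_G comparisons under all 4 scalings, while Cd68, Mpeg1 and Ptprc gained, lost or turned a call as given above. Without scaling 4 of the 10 were higher and 5 lower in FLM_G against BMM, 1 higher and 6 lower in FLM_M against BMM, and 4 higher and 4 lower in FLM_G against FLM_M.

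**Figure D4:**
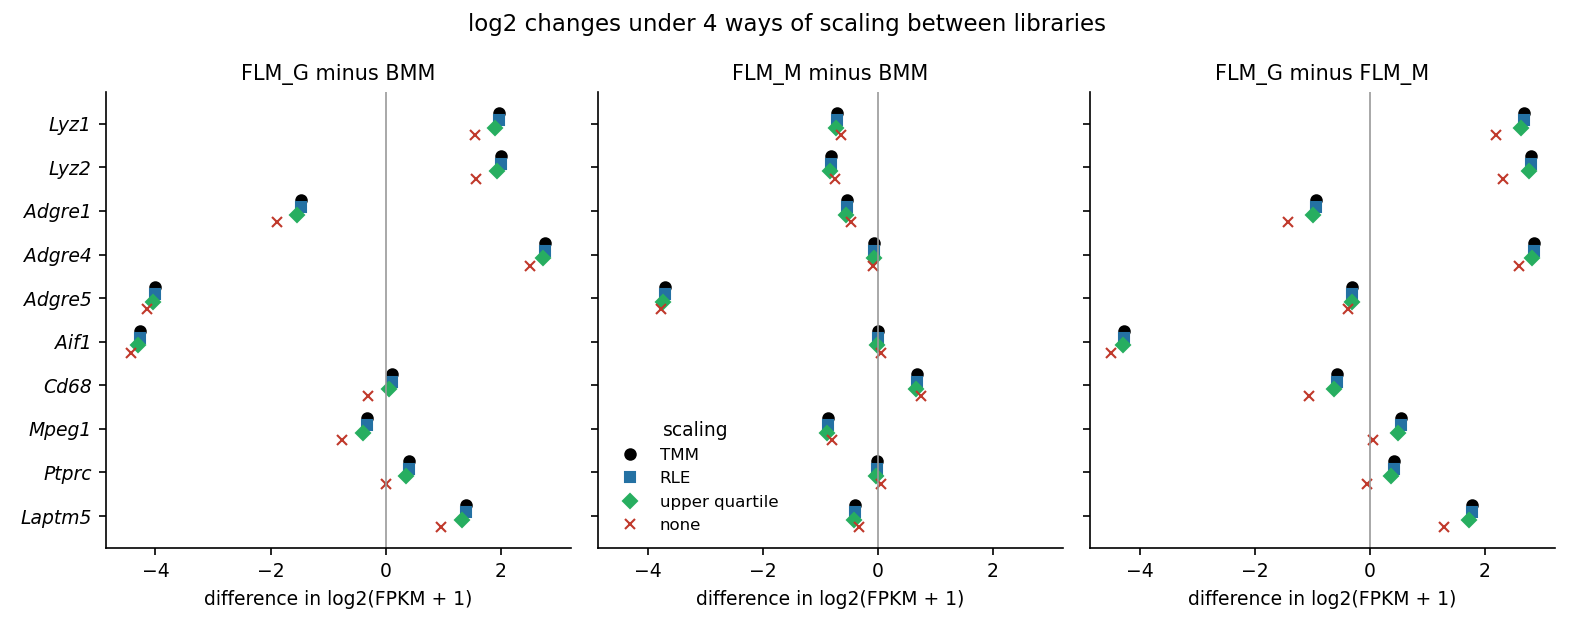
Log2 changes of the 10 genes in the 3 comparisons under TMM, RLE, upper-quartile and no scaling, with 1 row per gene and 1 symbol per scaling. Values without scaling lie to the left of the others in both comparisons with FLM_G; Cd68 in FLM_G minus BMM crosses 0, and Ptprc comes to lie at about 0.

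Genes with the most similar profile were sought among 3393 genes averaging at least 20 FPKM in 1 group or more, by the root mean square difference of centred log2 profiles over the 9 libraries. For both lysozymes these were Itgb2, at 0.08 log2 units from each, and Tifab, at 0.13 from Lyz1 and 0.10 from Lyz2; the lysozymes themselves were 0.11 apart. Nearest to Adgre1 were Mfsd1, a lysosomal transporter (0.10), and Tns3 (0.11), and nearest to Adgre4 were the lectin receptor Cd302 (0.10) and the adaptor Sla (0.10). Adgre5 had the loosest matches, with the phagosomal metal transporter Slc11a1 at 0.36 and Ckap4 at 0.57. Slc11a1 averaged 4.76 FPKM in FLM_G, 6.96 FPKM in FLM_M and 57.9 FPKM in BMM. Aif1 was nearest to the tubulin gene Tubb2b (0.19) and to Pstpip1 (0.20), which averaged 0.753 FPKM in FLM_G, 27.5 FPKM in FLM_M and 24.8 FPKM in BMM. The matches were Tmem184b (0.06) and Tbrg1 (0.07) for Cd68, Pitpna (0.05) and the glycolytic gene Pgk1 (0.06) for Mpeg1, Aamp (0.09) and Dnajc15 (0.10) for Ptprc, and Fam69a and Def8 (0.11 each) for Laptm5.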

How the data were processed

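The authors deposited, for the same 46078 genes, a table of FPKM and a table of read counts, 1 column per library. Per the labels' protocols, a stranded mRNA kit was used and fragments were sequenced from 1 end, for 101 cycles, on a shared lane. Per the submitters' processing notes, HISAT2, StringTie and DESeq2 were among the tools, with builds mm10 and GRCm38; versions and the making of each table are not given in the sources used here. The deposited counts summed to only 782400 to 1170813 per library and were used only for alternatives. The labels and submitters' notes do not say which strand was counted, and an earlier processing of the same files reported the opposite strand. A deposited count may therefore hold reads of a gene on the other strand, and whether it does was not tested. Depth was read from the steps of low FPKM, of which 42.7% to 50.8% lay within 2% of a whole read, so it is approximate.

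FPKM were scaled by TMM factors (edgeR 4.0.16). On log2(FPKM + 1), limma 3.58.1 with a mean-variance trend (R 4.3.3) fitted 1 mean per group to the 11952 genes that reached 1 FPKM in 3 or more of the 9 libraries, leaving 6 residual degrees of freedom. A gene was called where its p, adjusted over all genes tested (Benjamini-Hochberg), was under 0.05. A change is on the log2(FPKM + 1) scale and understates that of low genes. Lysozyme ratios and sums had exact two-sided permutation tests. Steps were tested on simulated data.

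The rule for the 10 genes uses names alone, but it, the other lists and the tests were written with earlier results of these data known. Of each list up to 3 passing genes of the largest change with at least 5 FPKM in the higher group, and genes that did not pass with at least 50 FPKM, could be named; the text gives fewer. Alternatives were other scalings, filters and pseudocounts, the 6 libraries compared, a replicate block, each library left out, and edgeR and DESeq2 1.42.0 on the counts. Gene positions are those of GENCODE M21, and promoters those of RefSeq.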

Additional observations from a re-analysis of the deposited data

How the results depend on the processing

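With FPKM as the measure, the number of genes called moved by less than 1.5 times under every alternative tried; with 1 library left out it was 7239 to 8063 in FLM_G against BMM, 4192 to 5509 in FLM_M against BMM and 7606 to 8242 in FLM_G against FLM_M. Of the 10 genes, 7 to 9, 6 to 7 and 9 to 10 were then called in those comparisons; Adgre5 missed the filter without any 1 BMM library and Adgre4 without any 1 FLM_G library, so 9 were tested there. Deviations of same-numbered libraries correlated at -0.08 to 0.09. Differently numbered libraries were not compared, so whether replicate numbers pair libraries was not settled. With the replicate number as a block 8018, 5140 and 8386 genes were called. On the deposited counts edgeR called 2458, 1300 and 2855 genes and DESeq2 2195, 838 and 2628. Of the 10 genes, DESeq2 called 5 in FLM_G against BMM, 2 in FLM_M against BMM and 6 in FLM_G against FLM_M. In the same order edgeR, which tested 8, called 6, 2 and 4. Lyz1, Adgre4, Mpeg1 and Ptprc were called by limma in FLM_G against BMM but not by DESeq2 (DESeq2, adjusted p = 0.40, 0.084, 0.59 and 0.18). There edgeR called Ptprc (edgeR, adjusted p = 0.025) but not Mpeg1 (edgeR, adjusted p = 0.52). The count table holds far fewer reads, and the labels do not give the strand counted. The cause of the loss was not tested. Signs turned for Cd68 in FLM_G against BMM (-0.30 without scaling), Ptprc in FLM_G against FLM_M (-0.039 without scaling), and 2 differences near 0 in FLM_M against BMM. One was Aif1: -0.0010 with RLE, -0.016 with upper-quartile scaling, -0.013 without a filter, -0.00015 with a pseudocount of 0.1, -0.0058 with only the 6 libraries compared, -0.0070 by edgeR, -0.079 by DESeq2, and -0.093 to 0.17 with 1 library left out. The other was Ptprc: 0.053 without scaling, 0.0033 with a filter of 5 FPKM, 0.58 by edgeR, 0.51 by DESeq2, and -0.051 to 0.059 with 1 library left out. The log2 difference of the Lyz2 to Lyz1 ratio, taken on the deposited counts, was 1.01, -0.26 and 1.26 in the order of comparisons above, with 8 or fewer Lyz1 counts per library. That of the lysozyme sum was 1.57, -0.75 and 2.32 without scaling, and 1.93 in FLM_G against BMM and 2.76 in FLM_G against FLM_M with upper-quartile scaling. Adgre4 did not enter the fit with the filter of 5 FPKM or that of FLM_M and BMM alone, Adgre5 did not enter that of FLM_G and FLM_M alone, and Lyz1 and Adgre4 did not enter edgeR. Depth limits Adgre4 outside FLM_G and Adgre5 and Aif1 in FLM_G, each at under 1 FPKM.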

Other observations

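The deposited count table, not used for the levels above, held few reads of these genes. Lyz2 had 6150, 6369 and 1763 counts in FLM_G, 1559, 1382 and 1294 counts in FLM_M, and 916, 1390 and 1395 counts in BMM, where its FPKM stand for 796159 to 843560 reads in FLM_G, 170351 to 197179 in FLM_M and 287484 to 308864 in BMM. The third FLM_G library was far below the other FLM_G libraries in these counts and not in its FPKM. The labels do not say whether the counts are of the gene's own strand.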
